A study of Mus musculus with 12 samples.

Results

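Hgf, Met and the proteins that activate the ligand or hold its activation back were followed across 12 mouse tumors. The set holds 6 genes of the 18193 that had a probe set with a single symbol: the ligand Hgf, its receptor Met, the activating proteases Hgfac and St14, and the protease inhibitors Spint1 and Spint2. The members were taken by symbol, and Hgf was picked because the effect of radiation on its brightest probe set differed between tumors with and without the antibody 1D11. That difference is therefore described here without a test. All 10 probe sets of the 6 genes were used: 3 for Hgf, 2 for Met, 2 for Spint2 and 1 for each of the others.

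Each tumor was measured on its own Affymetrix oligonucleotide array, in 4 groups of 3 tumors. 1D11_radiation tumors received 1D11 and radiation, 1D11 tumors received 1D11 alone, radiation tumors received the antibody 13C4 and radiation, and control tumors received 13C4 alone, so every tumor was exposed to an antibody. 1D11 is an antibody that neutralizes TGF-beta; 13C4 serves as the matching isotype control. The tumors were grown from LLC, the Lewis lung carcinoma cell line, which itself came from a C57BL/6 mouse. Hosts were C57BL/6 females, 6 to 8 weeks old, injected subcutaneously in the right flank. Randomization took place at 60 to 80 mm3, collection on day 19, and the stroma and immune cells of the tumors are those of the host. The labels disagree on the dose, with 5 fractions of 6 Gy in the sample characteristics and 2 Gy in the sample descriptions, and only the source names call the material tumor, while the descriptions call it cells. The labels do not say that each replicate came from a separate mouse, so a p-value measures the spread between these samples. In whole tumors, fewer cells of a type and less RNA per cell cannot be told apart.

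HGF, the hepatocyte growth factor or scatter factor, is made mostly by fibroblasts and other stromal cells and acts on neighbouring epithelial and carcinoma cells that carry the receptor tyrosine kinase MET. It is secreted as an inactive single chain and binds MET productively only after a serine protease has cut it, chiefly the HGF activator encoded by Hgfac or matriptase encoded by St14. The Kunitz-type inhibitors HAI-1 (Spint1) and HAI-2 (Spint2) block these proteases. TGF-beta is known to lower HGF production by cultured fibroblasts, and Met transcription is known to respond to hypoxia through HIF-1 in human carcinoma cells.

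The promoters of the receptor and the ligand are shown because their transcripts carry the differences described below. RefSeq on GRCm38.p6 gave a start site for 5 of the 6 members. The window is the 250 bases before the start, on the strand of the gene. For Met this was chr6:17463707-17463956 and for Hgf, at the more upstream of its listed starts, chr5:16553245-16553494, both on the plus strand. Capitals mark matches to any of the motifs searched, on either strand. The GC box was searched as GGGCGG. The core of the hypoxia-response element, which HIF binds, was searched in the forms ACGTG and, as a separate pattern, GCGTG. The AP-1 element was searched as TGANTCA. The SMAD box of TGF-beta signalling was searched as CAGAC. The TATA box was searched as TATAAA.
Met: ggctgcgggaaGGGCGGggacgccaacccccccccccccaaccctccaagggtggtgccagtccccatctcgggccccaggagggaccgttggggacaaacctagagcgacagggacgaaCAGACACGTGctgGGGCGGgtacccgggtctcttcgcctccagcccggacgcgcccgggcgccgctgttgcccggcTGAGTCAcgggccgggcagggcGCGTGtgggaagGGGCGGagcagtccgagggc
Hgf: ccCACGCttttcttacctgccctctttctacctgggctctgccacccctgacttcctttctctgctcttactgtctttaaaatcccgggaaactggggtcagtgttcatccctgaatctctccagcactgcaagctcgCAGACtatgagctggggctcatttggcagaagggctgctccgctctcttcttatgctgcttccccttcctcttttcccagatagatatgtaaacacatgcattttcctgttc

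The Met window held 3 GC boxes, 1 GCGTG, 1 AP-1 element and 1 SMAD box. It also held 2 overlapping ACGTG matches, which are the strands of 1 palindrome, and the SMAD box overlapped that palindrome. The Hgf window held 1 GCGTG, read on the minus strand, and 1 SMAD box, with no GC box, AP-1 element or TATA box. Of 32851 promoter windows of this length, GGGCGG stood in 32.7%, GCGTG in 28.2%, ACGTG in 16.6%, TGANTCA in 6.75%, CAGAC in 42.2% and TATAAA in 12.4%. A match describes letters in this window only.

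The values are deposited intensities, used here on the log2 scale. Groups were compared with limma over 12735 genes, and a gene whose Benjamini-Hochberg adjusted p lay under 0.05 was called. Errors of log2 differences are standard errors (SE) from that model, and errors of group levels are standard deviations (SD). Array medians lay between 62.3 and 66.1, no raw background was available, and the number of arrays limits the precision. Skeletal muscle markers stood high in control tumor 1 and radiation tumor 3, with mean centred log2 values of 1.37 and 2.08 against at most 0.77 in any other tumor, and results called below are given without these tumors where they change. Of the 8 simple epithelium markers, Krt8, Krt18, Krt19 and Epcam lay above the brightness limit for testing (log2 5.37) and the junction genes Cdh1, Cldn4 and Cldn7 and the splicing factor Esrp1 below it. The median radiation effect of those above the limit, and the effect of Krt19, are given beside Met.

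Hgf was dim. Its brightest probe set, used here as the main one, averaged 5.57 on the log2 scale over the 12 tumors, just above the limit for testing. The probe sets of 43 olfactory receptor genes, which lung carcinoma tissue should hardly transcribe and which were chosen as a gauge after the data were seen, had a median of 4.25 and a 5th to 95th percentile range of 3.62 to 5.53. The mean of this Hgf probe set was above 95.3% of them, but its mean in the radiation group, 5.34, lay under the limit for testing and within that range, so the probe set was bright enough to test only through the other groups. The other Hgf probe sets, at means of 4.92 (the second) and 4.51 (the third), were above 79.1% and 67.4% of them.

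On the main probe set, Hgf read 5.73, 5.64 and 5.65 in the 1D11_radiation tumors and 5.51, 5.55 and 5.62 in the 1D11 tumors. It read 5.31, 5.32 and 5.39 in the radiation tumors, against 5.68, 5.73 and 5.71 in the control tumors. All 3 radiation tumors lay below the 9 others, and the control and 1D11_radiation tumors overlapped. Group means ± SD were 5.68 ± 0.05 in 1D11_radiation, 5.56 ± 0.06 in 1D11, 5.34 ± 0.04 in radiation and 5.71 ± 0.02 in control tumors (n = 3 each).

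Under 13C4, Hgf was lower in irradiated than in unirradiated tumors by a log2 difference of -0.36 ± 0.06 (SE). Because the radiation tumors lay within the range of the gauge, no fold is given. Under 1D11 the radiation difference was 0.11 ± 0.06. The difference between these, the interaction for which the gene was picked, was 0.48 ± 0.08. Among irradiated tumors, those with 1D11 were 0.33 ± 0.06 above those with 13C4. Among unirradiated tumors the 1D11 difference was -0.14 ± 0.06, and 1D11_radiation differed from control by -0.03 ± 0.06. These are descriptions of the values that chose the gene, with no test. Leaving out each tumor in turn kept the interaction between 0.45 and 0.51. For the interaction, limma called 0% of the 12735 genes, with 952 genes at an unadjusted p under 0.05. It called 122 genes when arrays were weighted by their estimated quality, and at most 21 with a tumor left out.

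**Figure D1:**
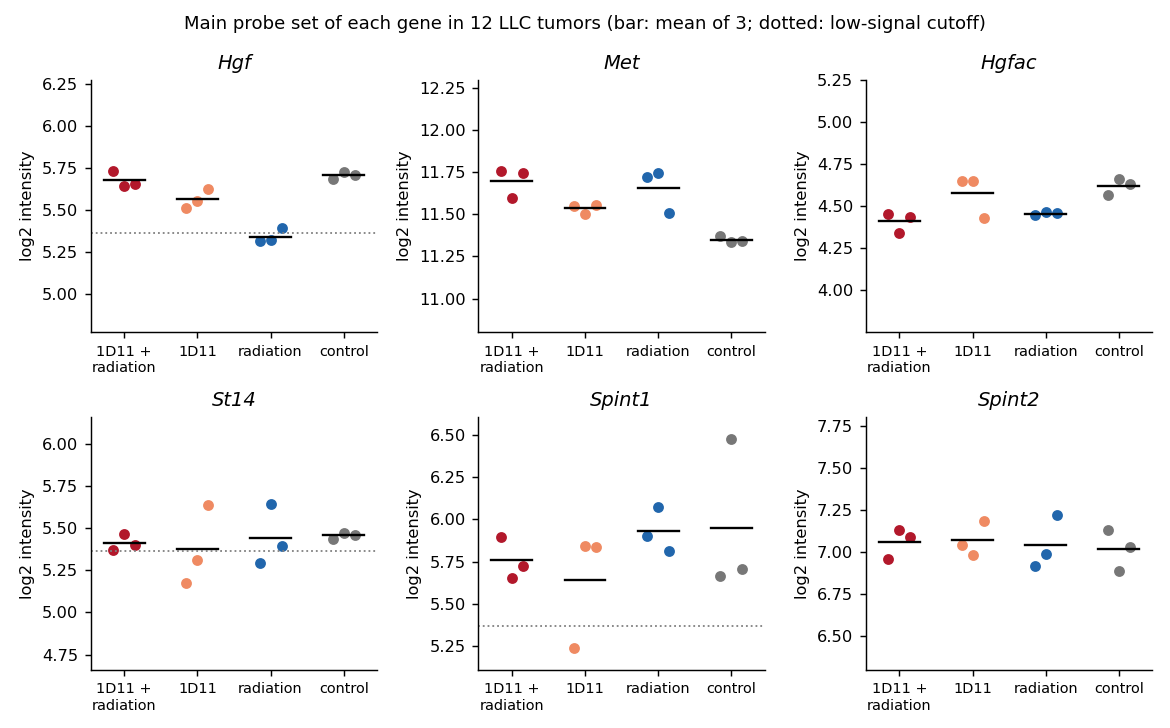
log2 intensity of the 6 members in each of the 12 tumors (points, 3 per group), with group means as bars. Hgf lies between 5.31 and 5.39 in radiation tumors and at 5.51 or above in every other tumor, and Met lies between 11.34 and 11.37 in control tumors and at 11.50 or above in every other tumor.

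The other 2 probe sets of Hgf did not show this pattern. On the second probe set the radiation difference was -0.17 under 1D11 and -0.16 under 13C4, which leaves an interaction of -0.0082 ± 0.19 (SE). On the third the same differences were -0.11 and -0.16, with an interaction of 0.05 ± 0.21. On both, all 4 groups overlapped their neighbours, and across the 12 tumors each pair of Hgf probe sets correlated at an r between 0.30 and 0.36, given as a description of points that share arrays and treatments. The main effects on the main probe set come from the same 12 values and share the residual spread of the interaction, so they too are given with no test. Irradiated tumors differed from unirradiated tumors by -0.13 ± 0.04, and tumors with 1D11 from those with 13C4 by 0.10 ± 0.04.

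**Figure D2:**
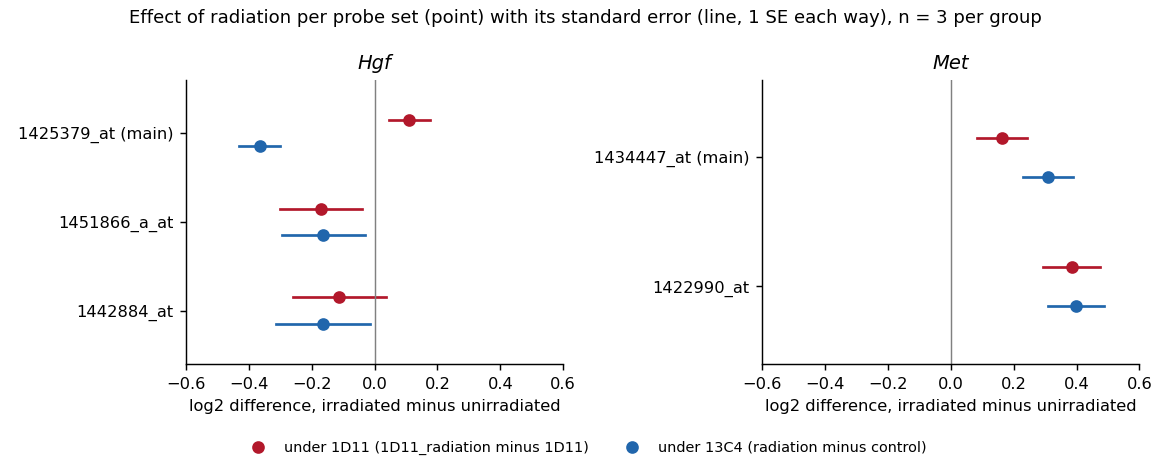
log2 difference of irradiated minus unirradiated tumors for each probe set of Hgf and Met, under 1D11 (red) and under 13C4 (blue), with lines of 1 SE each way (n = 3 per group). The main Hgf probe set has 0.11 under 1D11 and -0.36 under 13C4, the other Hgf probe sets have -0.11 to -0.17, and both Met probe sets are above 0 under either antibody.

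Met, the receptor, was higher in irradiated tumors. On its main probe set it read 11.76, 11.60 and 11.74 in the 1D11_radiation tumors and 11.72, 11.75 and 11.51 in the radiation tumors. It read 11.55, 11.50 and 11.56 in the 1D11 tumors, against 11.37, 11.34 and 11.34 in the control tumors. The 3 control tumors lay below the 9 others, a separation whose share over all genes was not counted. Radiation tumor 3, at 11.51, fell among the 1D11 tumors. The order of the means was 1D11_radiation, radiation, 1D11 and control, and 1D11_radiation overlapped radiation, which overlapped 1D11.

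The 6 irradiated tumors averaged 11.68 ± 0.10 and the 6 unirradiated tumors 11.44 ± 0.10 (SD). The radiation main effect was 0.24 ± 0.05 (SE), a 1.18-fold level with a 95% interval of the log2 difference from 0.12 to 0.35, and it passed (adjusted p = 0.0239). limma called 7.26% of all genes for this effect, 3.39% as higher in irradiated tumors, and Met was the 1 member called among the 4 tested, Hgf being described only. The call was lost in 5 of 12 fits with a tumor left out. These omitted 1D11 tumor 2 (adjusted p = 0.0631), radiation tumor 1 (0.0654), radiation tumor 2 (0.0602), 1D11_radiation tumor 1 (0.0601) or 1D11_radiation tumor 3 (0.0686).

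The second Met probe set separated the tumors by radiation. It read 7.11, 6.80 and 7.08 in the 1D11_radiation tumors and 6.82, 6.91 and 6.77 in the radiation tumors. It read 6.51, 6.65 and 6.68 in the 1D11 tumors, against 6.45, 6.42 and 6.43 in the control tumors. All 6 irradiated tumors, at 6.77 to 7.11, lay above all 6 unirradiated tumors, at 6.42 to 6.68, as in 1.25% of the 34945 single-symbol probe sets; in 2.63% the irradiated and unirradiated tumors did not overlap in either direction. Its radiation main effect in limma was 0.39 ± 0.06 (SE). It passed with an adjusted p of 0.0119 over all those probe sets, of which limma called 3.02%, and it was called with each tumor left out in turn (0.36 to 0.44, adjusted p at most 0.0379). On the same basis the main Met probe set had an adjusted p of 0.0456 and was called in 2 of 12 fits with a tumor left out, with adjusted p up to 0.12. The probe sets of Met followed each other across the 12 tumors (r = 0.918, rho = 0.958, as a description).

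Between pairs of groups, Met passed for 1D11_radiation against control alone, with a difference of 0.35 ± 0.07, a 1.28-fold level (adjusted p = 0.0415). That comparison called 2.35% of all genes, and Met was the 1 member called among the 4 tested, Hgf being described only. The call was kept in 1 of 12 fits with a tumor left out, with adjusted p between 0.0211 and 0.13. Radiation against control gave 0.31 ± 0.07 (adjusted p = 0.0553), where 2.39% of all genes and none of the tested members were called. Without radiation tumor 3 this difference was 0.38 (adjusted p = 0.02), and without radiation tumor 3 and control tumor 1 it was 0.39 (adjusted p = 0.0227). 1D11_radiation against 1D11 gave 0.16 (adjusted p = 0.326), where 0.0785% of all genes were called.

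None of the comparisons of 1D11 with 13C4 passed for Met. 1D11 against control gave 0.19 (adjusted p = 0.31), a comparison that called 0.0157% of all genes and none of the tested members. The 3 tumors of the 1D11 group were above the 3 control tumors on both Met probe sets, which followed each other. How many probe sets separate these groups in this way was not counted, so the separation is a description only. 1D11_radiation against radiation gave 0.04 (adjusted p = 0.943), where 0% of genes were called by limma and 688 had an unadjusted p under 0.05. The 1D11 main effect on Met was 0.11 (adjusted p = 0.405, with 0.00785% of all genes called). The interaction was -0.14 with a 95% interval of -0.38 to 0.09 (adjusted p = 0.829) on the main probe set and -0.015 on the second, and none of the 4 tested members was called for it.

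The radiation effect on Met was 0.17 with the fibroblast marker score as a covariate (adjusted p = 0.108) and 0.25 with the keratinocyte marker score (adjusted p = 0.0811), against 0.24 with neither. Of the 12735 genes, these fits called 366 and 237 for this effect, against 925 with no covariate, so a loss of the call was common to most called genes. The fibroblast score ranged from -0.68 to 0.45 in 1D11_radiation, 0.03 to 0.33 in 1D11, -0.40 to 0.25 in radiation and 0.08 to 0.33 in control tumors. The keratinocyte score lay below 0 in all groups except 1D11, where it reached 2.29. All 4 tested simple epithelium markers, which carcinoma cells can express, had a positive radiation main effect, with a median of 0.31, and 1 was called, Krt19 at 0.43 (adjusted p = 0.028, lost in 5 of 12 fits with a tumor left out). Their score ranged from -0.07 to 0.23 in 1D11_radiation, -0.36 to 0.05 in 1D11, 0.09 to 0.20 in radiation and -0.13 to -0.02 in control tumors. Of 7 tested cytotoxic lymphocyte markers, 6 had a positive radiation main effect and 1 a negative one, with a median of 0.85. The 4 called were Gzma, Klrd1, Ccl5 and Gzmb, the granzyme B gene, at 1.10 (adjusted p = 0.00505), and 2 to 5 were called with a tumor left out. Their score ranged from 0.03 to 0.67 in 1D11_radiation, -0.31 to 0.13 in 1D11, 0.37 to 0.42 in radiation and -0.74 to -0.36 in control tumors. The part of the epithelial and lymphocyte markers in the level of Met was not tested.

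Of the activating proteases, Hgfac, which is made chiefly by the liver and circulates as a precursor, lay below the brightness limit and was not tested. It read 4.45, 4.34 and 4.44 in 1D11_radiation, 4.65, 4.65 and 4.43 in 1D11, 4.45, 4.46 and 4.46 in radiation and 4.57, 4.66 and 4.63 in control tumors. Its mean of 4.52 was above 67.4% of the olfactory receptor probe sets. Neighbouring groups in the order of the means overlapped. The 3 tumors of 1D11_radiation and the 3 of radiation lay below the 3 control tumors. How many probe sets separate in this way was not counted, and these values lie within the range of the olfactory gauge. Irradiated tumors ran from 4.34 to 4.46 and unirradiated tumors from 4.43 to 4.66, with 1D11 tumor 3 the only unirradiated tumor within the irradiated range. At this brightness no test was made of that difference.

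St14, a membrane-bound protease of epithelial cells, averaged 5.41 ± 0.05 in 1D11_radiation, 5.37 ± 0.24 in 1D11, 5.44 ± 0.18 in radiation and 5.46 ± 0.02 in control tumors. All 4 groups overlapped. Neither the radiation main effect (0.01, 95% interval -0.17 to 0.19, adjusted p = 0.95), nor the 1D11 main effect (-0.06, adjusted p = 0.792), nor the interaction (0.05, adjusted p = 0.965) passed. Its mean was above 88.4% of the olfactory receptor probe sets.

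Of the main probe sets of the 6 members, that of the inhibitor gene Spint1 had the widest range over the 12 tumors. It averaged 5.76 ± 0.13 in 1D11_radiation, 5.64 ± 0.35 in 1D11, 5.93 ± 0.13 in radiation and 5.95 ± 0.46 in control tumors. Control tumor 2 stood at 6.48 and 1D11 tumor 1 at 5.24, the highest and lowest values of the 12. The 1D11 main effect was -0.24 with a 95% interval of -0.57 to 0.09 (adjusted p = 0.516), the radiation main effect 0.05 (adjusted p = 0.883) and the interaction 0.14 (adjusted p = 0.944).

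On the main probe set of Spint2, the other inhibitor gene, all groups overlapped. It averaged 7.06 ± 0.09 in 1D11_radiation, 7.07 ± 0.10 in 1D11, 7.04 ± 0.16 in radiation and 7.02 ± 0.12 in control tumors. The radiation main effect was 0.0074 with a 95% interval of -0.14 to 0.16 (adjusted p = 0.966), the 1D11 main effect 0.03 (adjusted p = 0.855) and the interaction -0.03 (adjusted p = 0.973). Its second probe set ran from 5.44 to 7.25 over the tumors, with all groups overlapping. In the 5 comparisons between pairs of groups, none of St14, Spint1 and Spint2 was called, and the lowest adjusted p was 0.541, for Spint1 in 1D11 against control.

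**Figure D3:**
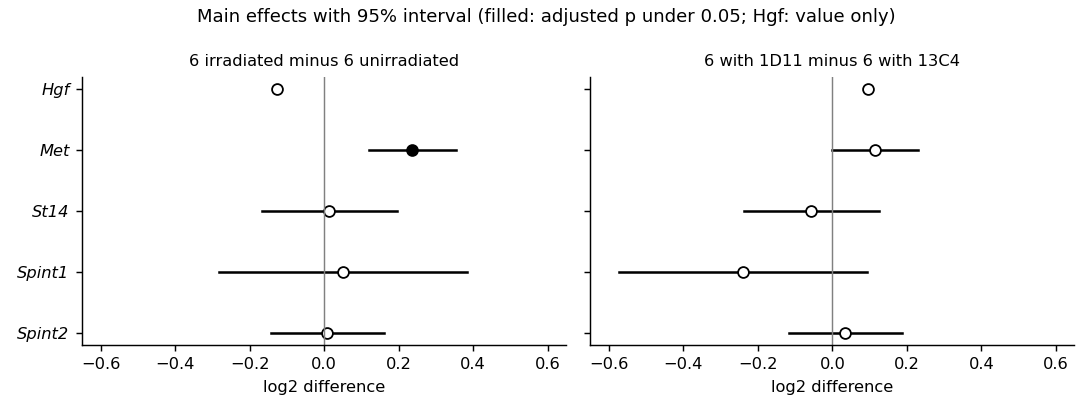
log2 main effects of radiation (irradiated minus unirradiated) and of 1D11 (1D11 minus 13C4) for the 4 tested members with 95% intervals from limma (6 tumors per side), and for Hgf as values only. Met stands at 0.24 for radiation, and the intervals of St14, Spint1 and Spint2 include 0 in both panels.

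Genes that act with HGF and Met were read from lists chosen by known function, by their counts and medians for the radiation main effect. Of 9 other proteases known to cut HGF or start the cascade that does, 5 were bright enough to test and 1 was called. Plat, the tissue plasminogen activator, read 8.66, 9.19 and 8.87 in 1D11_radiation and 9.19, 8.93 and 9.03 in radiation tumors, against 9.66, 9.54 and 9.47 in 1D11 and 9.99, 9.33 and 9.45 in control tumors. All irradiated tumors were below all unirradiated ones. Over the 34945 single-symbol probe sets, 2.63% had no such overlap in either direction. Plat fell by 0.59 ± 0.12 (adjusted p = 0.0166), and the call was kept with any 1 tumor left out. The urokinase gene Plau, with 0.22, did not pass (adjusted p = 0.566). Neither of the 2 tested genes among protease receptors and serpins passed, with the urokinase receptor gene Plaur at 0.29 (adjusted p = 0.181) and the inhibitor gene Serpinb2 at 1.33 (adjusted p = 0.143).

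Among 8 co-receptors and partners of MET, Nrp1, a neuropilin that binds HGF and semaphorins, fell by 0.32 ± 0.08 (adjusted p = 0.0407), a call lost in 10 of 12 fits with a tumor left out and without both muscle-rich tumors (adjusted p = 0.0796). Cd44, which presents HGF on the cell surface, was at 0.22 (adjusted p = 0.123). The median of the 8 genes was -0.04. None of the 12 adaptors and effectors was called, with a median of 0.04 and the lowest adjusted p at 0.0524 for Grb2 (0.19), the adaptor that links MET to Ras. Pik3r1, the regulatory subunit of PI3-kinase, was at -0.37 (adjusted p = 0.127).

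Of 7 genes that restrain MET, 1 was called. Lrig1, a transmembrane protein that lowers MET and EGFR levels, read 11.75, 11.78 and 11.82 in 1D11_radiation and 11.62, 11.59 and 11.69 in radiation tumors, against 12.09, 12.06 and 11.99 in 1D11 and 11.92, 12.11 and 11.91 in control tumors. Again no irradiated tumor reached an unirradiated one, a lack of overlap seen in 2.63% of single-symbol probe sets in either direction. Lrig1 fell by 0.31 ± 0.05 (adjusted p = 0.00786), with any 1 tumor left out too. Cbl, the ubiquitin ligase of MET, was at 0.05 (adjusted p = 0.601), and the phosphatase gene Ptpn1 at 0.16 (adjusted p = 0.0503).

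The related ligand Mst1, the macrophage-stimulating protein, rose. It read 6.40, 6.74 and 6.41 in 1D11_radiation and 6.46, 6.40 and 6.48 in radiation tumors, against 5.83, 5.88 and 6.21 in 1D11 and 6.10, 5.99 and 5.83 in control tumors. The groups did not overlap by radiation, and all irradiated tumors were higher in 1.25% of single-symbol probe sets. Its main effect was 0.51 ± 0.08, a 1.42-fold level (adjusted p = 0.00854, kept with any 1 tumor left out). Its receptor gene Mst1r, which encodes Ron, was at -0.12 (adjusted p = 0.663).

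Of 9 genes whose products induce HGF in cultured fibroblasts, 6 were tested and 2 were called as higher in irradiated tumors. Tgfa, an EGFR ligand, read 6.55, 6.50 and 6.96 in 1D11_radiation and 7.45, 7.42 and 7.12 in radiation tumors, against 6.36, 6.58 and 6.50 in 1D11 and 6.48, 6.03 and 5.93 in control tumors. The radiation tumors were above all others, and 1D11_radiation overlapped 1D11. Tgfa rose by 1.18 ± 0.16 under 13C4 (adjusted p = 0.00888, lost without radiation tumor 2), and under 1D11 its difference of 0.19 ± 0.16 did not pass (adjusted p = 0.621). The main effect over both antibodies was 0.69 ± 0.11 (adjusted p = 0.00813), most of it from the 13C4 tumors. The interaction of -0.99 ± 0.23 did not pass (adjusted p = 0.38). Ptges, which makes prostaglandin E2, rose by 0.45 (adjusted p = 0.0347), a call lost in 8 of 12 fits with a tumor left out.

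Of 12 hypoxia genes, 6 rose and all 12 had a positive radiation main effect, with a median of 0.52. Under 1D11 the median radiation difference was 0.60, with all 12 positive. Under 13C4 it was 0.26, with 10 positive, and ran from 0.05 to 0.40 with a tumor left out. In this list 0 genes were called under either antibody, where 0.0785% of all genes were called under 1D11 and 2.39% under 13C4. Their score ranged from -0.47 to -0.35 in 1D11 tumors. It ranged from 0.15 to 0.35 in 1D11_radiation tumors, from 0.07 to 0.39 in radiation tumors and from -0.53 to 0.22 in control tumors. The low control value was that of muscle-rich control tumor 1. Control tumors 2 and 3, at 0.22 and 0.12, lay within the range of the radiation tumors. The median over all 12735 genes lay within -0.03 and 0.04 in every comparison. Pgk1, a glycolytic enzyme gene, rose by 0.30 (adjusted p = 0.011), also with any 1 tumor left out. The number called in this list ran from 1 to 7 with a tumor left out. P4ha2, Ldha and Adm rose by 0.62, 0.18 and 0.94, and each of these calls was lost in 4 to 6 of 12 such fits. The calls of Bnip3 and Vegfa, also higher in irradiated tumors, were each lost in 8 of 12.

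Some markers of stromal cells, the main source of HGF, fell. Of 12 fibroblast markers, the platelet-derived growth factor receptors Pdgfra and Pdgfrb fell by 0.92 (adjusted p = 0.00178) and 1.47 (adjusted p = 0.0072), with a median of -0.24 for the list. Of 7 tested pericyte markers, Rgs5 fell by 1.20 (adjusted p = 0.00272) and Mcam by 0.46 (adjusted p = 0.0246, lost in 4 of 12 fits with a tumor left out), with a median of -0.43. All 9 tested endothelial markers had a negative effect, with a median of -0.37, and 4 fell. Tek, an angiopoietin receptor gene, fell by 0.70 (adjusted p = 0.00305), Sox18 by 0.52, Esam by 0.37 and Vwf by 0.82. The calls of Esam and Vwf were lost in 9 and 10 of 12 such fits. Tek was dim, with a mean of 5.58 over the 12 tumors, and its irradiated tumors averaged below the limit for testing. It was thus bright enough to test only through the unirradiated tumors. The median radiation difference of the endothelial markers was -0.58 under 13C4 (5 called) and -0.18 under 1D11 (0 called). For the pericyte markers it was -0.81 under 13C4 (3 called) and -0.15 under 1D11 (0 called). Fibroblast markers had -0.19 under 13C4 (2 called) and -0.35 under 1D11 (0 called). Over all genes, 2.39% were called for radiation under 13C4 and 0.0785% under 1D11, so counts of 0 under 1D11 are near that share. With a tumor left out, the calls under 13C4 ran from 0 to 8 for endothelial, 0 to 3 for pericyte and 0 to 3 for fibroblast markers. For the interaction, 0 genes of these lists were called, and 0% of all genes. The part of these cell types in the levels of Hgf and Met was not tested beyond the fibroblast covariate. Of 8 TGF-beta targets, all had a negative 1D11 main effect with a median of -0.18, and none was called. Pmepa1, a feedback inhibitor of TGF-beta signalling, fell by 1.11 for radiation (adjusted p = 0.0101).

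**Figure D4:**
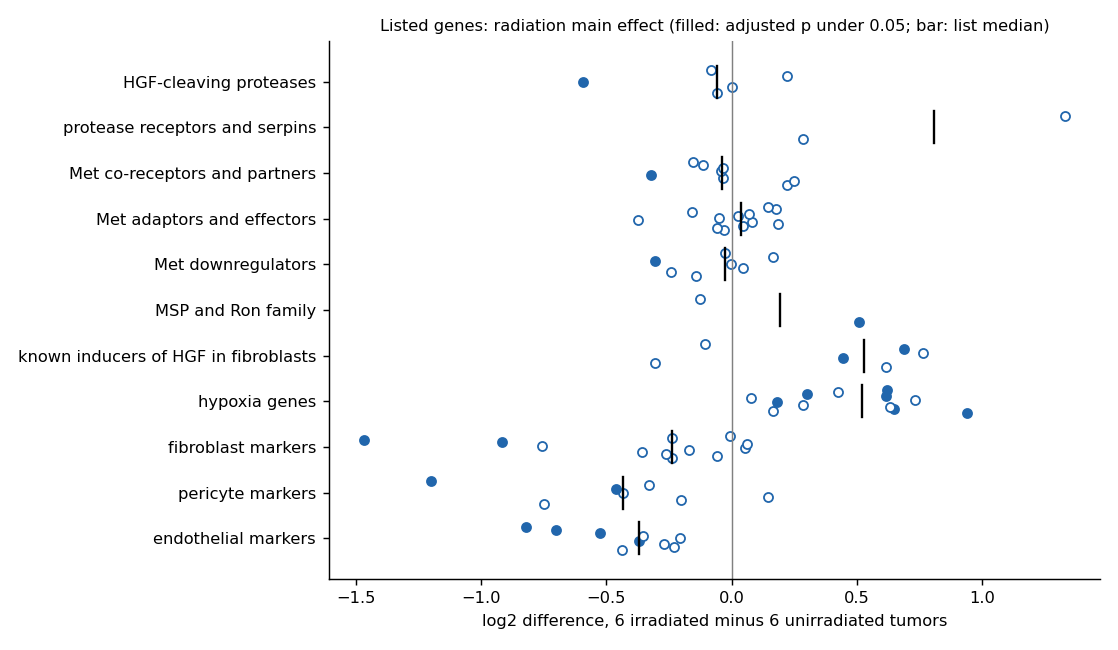
log2 radiation main effect (irradiated minus unirradiated) of each tested gene in the lists around HGF and Met, with called genes filled and the list median as a line. The hypoxia genes have a median of 0.52 and the endothelial markers one of -0.37.

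The genes whose levels most resembled those of the ligand and the receptor over the 12 tumors were taken by Pearson's r among the tested genes, as a description of points that share 4 treatments. For Hgf these were Frzb (r = 0.882), Rnf144a (0.823), Rhd (0.816), 6820431F20Rik (0.816) and Dll4 (0.804), and the most opposite was Sac3d1 (-0.895). After removal of the group means, r was between -0.211 and 0.115 for all of these but 6820431F20Rik (0.654). For Met they were Mrps25 (r = 0.968), Znrf2 (0.962), Tmem11 (0.957), Zfp697 (0.952) and Pcolce2 (0.940), and the most opposite was Tmem119 (-0.950). Within groups their r with Met was between 0.784 and 0.926, and that of Tmem119 was -0.792. Leaving out the 2 tumors farthest from the median of Met, control tumors 2 and 3, gave r of at least 0.919 for the 5 genes, and leaving out radiation tumors 1 and 2 gave r of 0.553 to 0.819 for those of Hgf.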

How the data were processed

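Gene expression in 12 LLC tumors was measured on Affymetrix arrays. The authors deposited one linear intensity per probe set and array. How they were corrected for background, normalized and summarised per probe set is not given in the sources used here. The values ran from 7.40 to 30798, and sorted log2 values differed by at most 0.129 between arrays, so the deposited intensities were taken as normalized and only put on a log2 scale.

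Of 45101 probe sets, 34945 had a single gene symbol in the platform annotation. Each of 18193 genes took the probe set whose log2 mean over the arrays was highest, and the lowest 30 percent of gene means were not tested, which left 12735 genes. Groups were fitted in R 4.3.3 with limma 3.58.1, lmFit on 4 group means and eBayes (8 residual and 3.11 prior degrees of freedom), with two-sided tests and Benjamini-Hochberg adjustment over all genes tested. The procedure was also run on simulated data, with independent noise for each gene and radiation shifts larger than any radiation effect given here for a member. That run does not cover effects as small as that of Met, or differences between tumors that many genes share. Hgf main effects were planned as tests but are given as descriptions, since Hgf was chosen on the same values. A marker score is the average, per tumor, of the list's centred log2 values.

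The members and lists were chosen with earlier results of these data known. In each list, called genes (at most 4, by smallest p) are named, otherwise the genes with the smallest p. Plau, Cd44, Cbl, Ptpn1 and Mst1r were named in addition, for their role, and Bnip3 and Vegfa for the calls they lost with a tumor left out. Samples that share a replicate number were not paired: 3 of 18 such pairs had an r over 0.1 after removal of group means (-0.31 to 0.27). Alternatives changed the filter, the probe set, the normalization, the log scale, the variance model, array weights, the groups in the fit, a replicate block, marker covariates and the tumors included. No protein sequence was used.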

Additional observations from a re-analysis of the deposited data

How the results depend on the processing

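Hgf, Hgfac and St14 lie near or below the brightness limit, and 3 tumors per group limit the precision. Members called for the radiation main effect numbered 2 with array weights, where Hgf, described only, was the other, and 0 with the keratinocyte or the fibroblast covariate; over the fits with a tumor left out the number ran from 0 to 1. For 1D11_radiation against control it was 0 without the filter, with every probe set tested, with only the groups compared, with the replicate block and with either covariate, and 0 to 1 with a tumor left out. For radiation against control it was 1 with the 50 percent filter, the mean of probe sets, log2(value + 16), the intensity trend, array weights or both muscle-rich tumors omitted, and 0 to 1 with a tumor left out. For 1D11_radiation against 1D11 it was 1 with array weights, where 1491 of 12735 genes were called, against 10 as reported. The other member counts were 0 throughout these settings. With the replicate block, the Met difference of 1D11_radiation against control kept its size of 0.35 (adjusted p = 0.0728). Reversed signs, all of values that did not pass, were Spint2 for radiation (-0.076 as mean of probe sets, -0.012 after quantile normalization, -0.0039 with array weights, -0.0073 without both tumors) and for 1D11 (-0.0062 after quantile normalization, -0.0092 with the keratinocyte covariate), the interactions of St14 (-0.036 with array weights) and Spint2 (0.0074 with array weights, 0.072 with the keratinocyte covariate), and Met in 1D11_radiation against radiation (-0.034 without both tumors, and -0.034 to 0.093 with a tumor left out). With a tumor left out, the radiation effect ran from -0.050 to 0.18 for Spint1, -0.037 to 0.079 for St14 and -0.036 to 0.039 for Spint2, and the interaction from -0.049 to 0.18 for St14, -0.13 to 0.28 for Spint1 and -0.097 to 0.053 for Spint2. The Hgf interaction was 0.35 with log2(value + 16) and -0.0082 or 0.05 on its other probe sets; the cause was not tested. Hgf falls below the 50 percent filter and, as a mean of probe sets, below the 30 percent filter, so it has no value there. Main effects and the interaction use all groups and have no fit on only the groups compared.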
